A study of Mus musculus with 2 samples.

Results

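The insulin-like growth factor (IGF) genes described here are 10 genes taken by symbol from the 23628 genes measured in *Sox9* GFPHi chondrospheres. They are the 2 ligands *Igf1* and *Igf2*, the 2 receptors *Igf1r* and *Igf2r*, and the 6 binding proteins *Igfbp2* to *Igfbp7*, and all 10 have a value in both libraries. IGF1 and IGF2 are secreted growth factors that act through IGF1R, a receptor tyrosine kinase that signals to PI3K, AKT and mTOR. IGF2R is the cation-independent mannose 6-phosphate receptor, which takes up IGF2 for degradation and carries enzymes to lysosomes. The binding proteins hold the ligands in the fluid and matrix around cells and set how much of them reaches the receptors, and proteases release the ligands again. In cartilage, IGF signalling is known for promoting chondrocyte growth and matrix synthesis.

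The measurements are RNA-sequencing of 2 libraries, replicates 1 and 2, of 1 condition. The chondrospheres are colonies grown at low density in methylcellulose at low oxygen, after sorting from femoral heads of homozygous *Sox9* IRES-EGFP reporter pups at postnatal day 7 for high GFP and for the absence of CD31, Ter119 and CD45. The methods call each pup a biological replicate, while the labels of the libraries name no animal, and libraries of other cells were not analysed here. The culture medium of both libraries held serum and added IGF1, FGF2, BMP4, LIF and TGF-β1, so the cells were exposed to IGF1 protein that their own RNA does not account for.

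Levels are counts-per-million values (CPM), and the steps between low values put the reads on genes at 43300000 in replicate 1 and 42100000 in replicate 2. A level of 3 reads, taken as the smallest that this depth can show, is 0.0693 and 0.0712 CPM in replicates 1 and 2. The 10 highest genes took 43.4% of replicate 1 and 34.7% of replicate 2, and over the 12631 genes whose mean reached 1 CPM, replicate 2 against replicate 1 had a median log2 ratio of 0.30. The label of chondrocytes was met by the markers, since all 8 chondrocyte genes looked up (*Sox9*, *Col2a1*, *Acan*, *Col9a1*, *Col11a2*, *Matn1*, *Comp* and *Hapln1*) exceeded 10 CPM in both libraries. With 1 condition no test between groups was possible, and differences are set against the spread between the libraries. In such bulk RNA, fewer cells that transcribe a gene and less RNA per cell cannot be told apart.

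**Figure D1:**
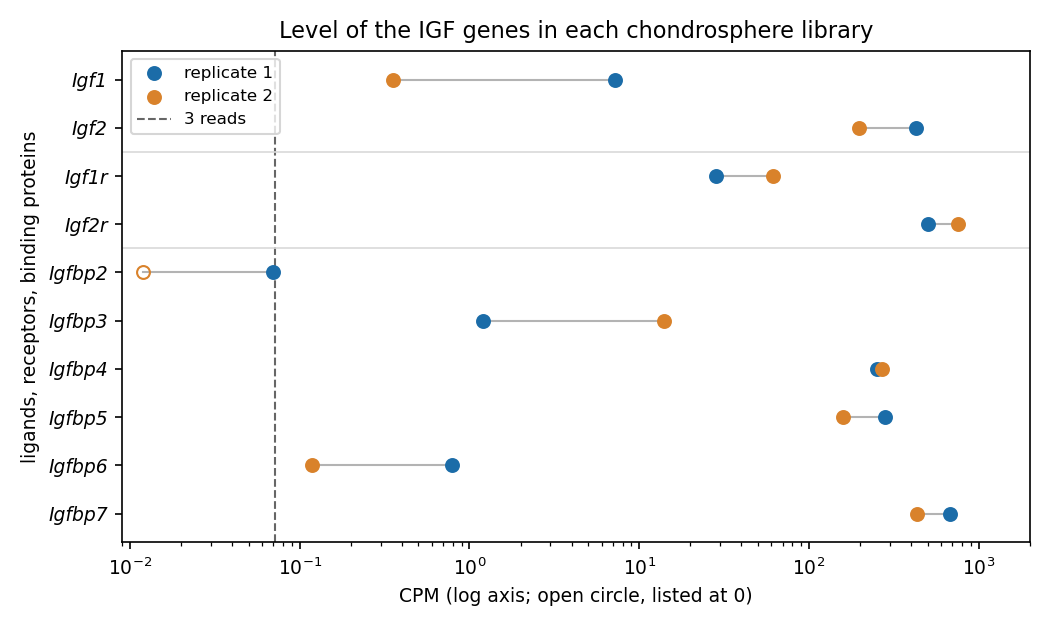
Level of each IGF gene in CPM (log axis) in replicate 1 (blue) and replicate 2 (orange) of the *Sox9* GFPHi chondrospheres, with a line joining the libraries. *Igf2*, *Igf2r*, *Igfbp4*, *Igfbp5* and *Igfbp7* lie above 100 CPM in both libraries, while *Igf1*, *Igfbp2*, *Igfbp3* and *Igfbp6* lie low and, apart from *Igfbp2*, far apart between the libraries (the dashed line marks 3 reads, the open circle a value of 0).

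Among the ligands, the transcript of *Igf2*, the growth factor of fetal and early postnatal tissues, far outnumbered that of *Igf1*, the ligand that growth hormone induces in the liver and other tissues after birth. *Igf2*, on chromosome 7 of GRCm38 from 142650766 to 142666816, had 426 and 197 CPM in replicates 1 and 2. It ranked 161 among all genes in replicate 1 and 545 in replicate 2. *Igf1*, on chromosome 10 from 87858265 to 87937042, had 7.19 and 0.356 CPM in replicates 1 and 2. Both ligands were therefore higher in replicate 1, and *Igf1* was low in replicate 2, where it ranked 14466 and its value rests on 15 reads against 311 in replicate 1.

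The ratio of the ligands does not depend on how a library was scaled. Per kilobase of annotated exons, *Igf2* exceeded *Igf1* 103-fold in replicate 1 and 957-fold in replicate 2, and the log2 ratio was 8.29 ± 2.28 (SD, n = 2). *Igf2* made up 99.0% of the ligand sum in replicate 1 and 99.9% in replicate 2. The excess is larger than the spread between the libraries, but its size is loosely known, with log2 ratios of 6.68 and 9.90. Read counts alone put the fold of *Igf1* between the libraries at 20.2, with an exact 95% interval of 12.1 to 36.5. Such intervals cover counting error only, as reads without molecular identifiers are not independent molecules.

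*Igf2* is an imprinted gene, transcribed in most tissues from the paternal copy, and lies 72622 bases from *H19*, the non-coding RNA that the maternal copy of the same domain makes. *H19* was measured at 665 and 186 CPM in replicates 1 and 2, and so was higher in the same library as *Igf2*. Antisense to *Igf2*, *Igf2os* had 0.474 and 0.908 CPM, and *Igf1os*, antisense to *Igf1*, had 0.0924 CPM in replicate 1 against a listed 0 in replicate 2. The libraries are stranded, while the strand setting of the read assignment is not given in the sources used here. A second annotated gene, *Gm49394*, runs over *Igf2* on the same strand and had no value under that name in either library. The method that assigned the reads can divide them between such genes, so the level of *Igf2* carries that uncertainty.

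The receptor transcripts were led by *Igf2r*. This gene, on chromosome 17 from 12682406 to 12769664, had 501 and 752 CPM in replicates 1 and 2, and it had the highest mean CPM of the 10 genes at 627 ± 177 CPM (SD, n = 2). *Igf1r*, the signalling receptor, on chromosome 7 from 67952827 to 68233668, had 28.3 and 61.3 CPM in replicates 1 and 2. Both receptors were higher in replicate 2, the library with less of both ligands. Genes as a whole also leaned towards replicate 2, with a median of 0.30 on the log2 scale. Centring on that median left *Igf2r* at 0.28, down from 0.59, and *Igf1r* at 0.81, down from 1.11. The gap of *Igf2r* was exceeded by 25.6% of the 12631 genes compared, and that of *Igf1r* by 9.73%. A link between receptors and ligands was not tested.

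Per kilobase of exons, *Igf2r* exceeded *Igf1r* 32.0-fold in replicate 1 and 22.1-fold in replicate 2, and its log2 ratio of 4.73 ± 0.37 (SD, n = 2) was far larger than the spread. Division by the coding sequence alone brought it to 9.77-fold and 6.76-fold, in the same direction. Such division changed the length only, and the level kept all reads of the gene, also those outside the coding sequence. *Insr*, the insulin receptor, which can pair with IGF1R in hybrid receptors, had 28.8 and 40.4 CPM in replicates 1 and 2. Set against *Insr* per kilobase of exons, *Igf1r* stood at 0.804 times its level in replicate 1 and 1.24 times in replicate 2, so the order of these receptors was not settled. *M6pr*, the cation-dependent mannose 6-phosphate receptor, which carries lysosomal enzymes but does not bind IGF2, had 55.8 and 73.0 CPM. *Igf2r* exceeded it per kilobase by a log2 ratio of 2.11 ± 0.14 (SD, n = 2), and by 0.11 ± 0.14 when each was divided by its coding sequence, which is within the spread.

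*Airn*, the imprinted antisense RNA that starts inside *Igf2r*, had 5.55 and 7.81 CPM in replicates 1 and 2. The log2 ratio of *Igf2r* to *Airn* per kilobase was 5.13 in replicate 1 and 5.22 in replicate 2, which are close beside each other.

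Of the binding proteins, *Igfbp7*, *Igfbp4* and *Igfbp5* were abundant, and the other 3 were low or near the limit of detection. *Igfbp7* encodes a secreted protein that shares the amino-terminal domain of the family and binds IGFs weakly. On chromosome 5 from 77349240 to 77408041, it had 674 and 431 CPM in replicates 1 and 2. Its end overlaps that of *Polr2b* on the opposite strand, which had 48.7 and 63.1 CPM.

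*Igfbp4* encodes a binding protein known as an inhibitor of IGF action that the protease PAPP-A cleaves. It lies on chromosome 11 from 99041244 to 99054392 and had 251 and 268 CPM in replicates 1 and 2. With a mean of 260 ± 12.4 CPM (SD, n = 2), it was the gene of the 10 whose libraries lay closest on the log2 scale. *Igfbp5*, which encodes a binding protein that attaches to extracellular matrix and is known from bone and cartilage, had 282 and 158 CPM in replicates 1 and 2. It lies on chromosome 1 from 72857932 to 72874884.

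*Igfbp5* stands end to end with *Igfbp2*, from 72824503 to 72852474 on the same chromosome, with 5457 bases and no gene between them. The neighbour *Igfbp2*, which encodes a binding protein common in fetal tissues and serum, was at the limit of detection. Its level of 0.0693 CPM in replicate 1 rests on 3 reads, and it was listed at 0 in replicate 2, where 3 reads, the limit set above, would be 0.0712 CPM. Both values are at or under that limit, so no fold is given.

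*Igfbp3* encodes the main carrier of IGFs in the blood, where it forms a complex with the acid-labile subunit. On chromosome 11 from 7206086 to 7213923, it had 1.20 CPM (52 reads) in replicate 1 and 13.9 CPM (586 reads) in replicate 2. That is 11.6-fold more in replicate 2, with an exact 95% interval of 8.71 to 15.7 from read counts alone. *Igfals*, which encodes the acid-labile subunit, had 1.71 and 0.142 CPM in replicates 1 and 2. Its mean of 0.926 CPM is under the 1 CPM set for comparing the libraries, and a link to *Igfbp3* was not tested. *Igfbp6*, which encodes a binding protein that prefers IGF2, had 0.786 CPM (34 reads) in replicate 1 and 0.119 CPM (5 reads) in replicate 2, on chromosome 15 from 102144362 to 102149511. The 95% interval of the fold between the libraries ran from 2.58 to 21.7, with a higher value in replicate 1.

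Per kilobase of exons, *Igfbp7* dominated the binding proteins. It made up 84.2% of the sum over the 6 genes in replicate 1 and 79.6% in replicate 2, a mean of 81.9% ± 3.26 (SD, n = 2). *Igfbp4* followed with 8.58% in replicate 1 and 13.6% in replicate 2. *Igfbp5* contributed 7.08% and 5.86%. These 3 genes together took 99.8% of the sum in replicate 1 and 99.0% in replicate 2, so the other 3 made up a very small part of it, although *Igfbp3* reached 0.991% in replicate 2.

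The size of the lead rests on gene length. The exons of *Igfbp7* cover 1209 bases, against 4416 for *Igfbp4* and 6006 for *Igfbp5*. Its coding sequence of 939 bases is longer than theirs, at 762 and 813 bases, so the shortfall lies outside the coding sequence. Without division by length, *Igfbp7* had 55.8% of the sum in replicate 1 and 49.5% in replicate 2. Divided by the coding sequence it had 51.4% and 44.9%, and it remained the first of the 6 genes in both libraries on each of the 4 scales tried. *Igfbp7* exceeded *Igfbp4* per kilobase of exons by a log2 ratio of 2.92 ± 0.53 (SD, n = 2), and by 0.75 ± 0.53 per kilobase of coding sequence.

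**Figure D2:**
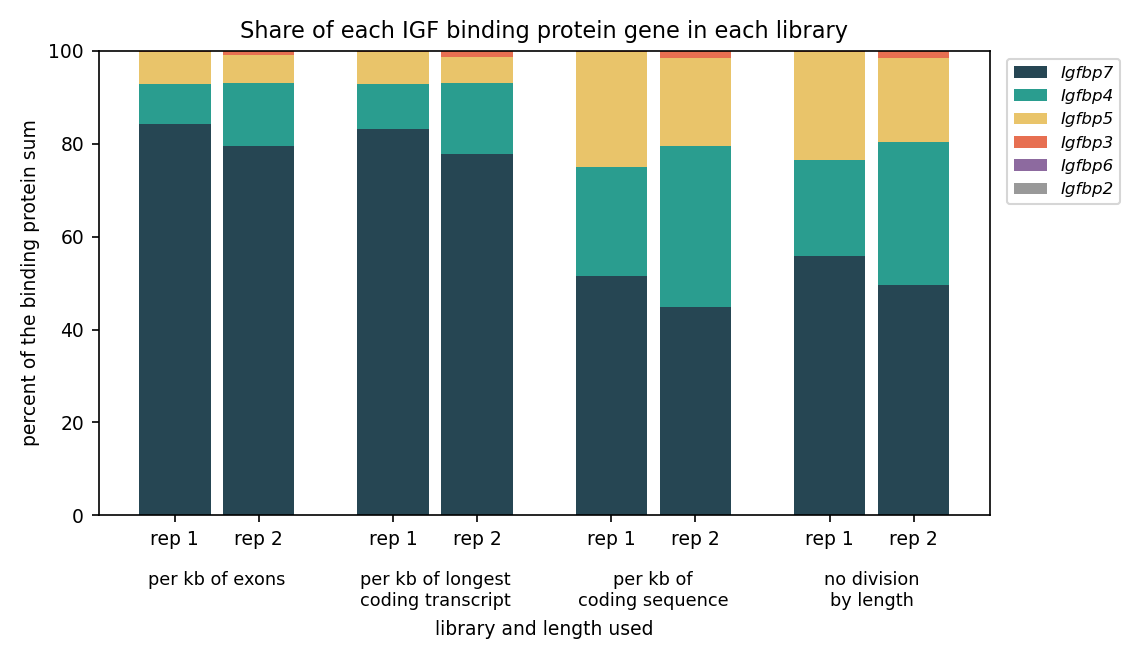
Share of each binding protein gene, as a percent of the sum over the 6 genes in the same library, for 4 ways of dividing by length. *Igfbp7* is the largest part of every bar, at 79.6% or more per kilobase of exons and at 44.9% or more per kilobase of coding sequence; *Igfbp6* and *Igfbp2* are too small to be seen.

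Without *Igfbp7*, whose protein has a low affinity for IGFs, the sum was shared almost entirely by 2 genes. *Igfbp4* then took 54.2% in replicate 1 and 66.4% in replicate 2, and *Igfbp5* took 44.7% and 28.7%. The log2 ratio of *Igfbp4* to *Igfbp5* per kilobase of exons was 0.28 in replicate 1 and 1.21 in replicate 2. Per kilobase of coding sequence it was -0.07 and 0.86, so which of them came first in replicate 1 depended on the length used.

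Set against the ligands per kilobase of exons, the 6 binding proteins summed to 8.81 times the ligand sum in replicate 1 and 13.0 times in replicate 2. With *Igfbp7* left out, the factor was 1.39 in replicate 1 and 2.66 in replicate 2. Per kilobase of coding sequence the 6 genes summed to 1.84 and 2.97 times the ligands, and without *Igfbp7* to 0.893 and 1.63 times, so that in replicate 1 the direction depended on the length. These are amounts of RNA, and no protein was measured.

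Over all 10 genes, the order per kilobase of exons was *Igfbp7*, *Igf2r*, *Igfbp4*, *Igf2*, *Igfbp5*, *Igf1r*, *Igfbp3*, *Igfbp6*, *Igf1* and *Igfbp2* by the mean of the libraries. *Igfbp7* stood at 457 ± 142 CPM per kilobase (SD, n = 2) and exceeded *Igf2r*, at 67.3 ± 19.1 CPM per kilobase, by more than the spread. *Igfbp4*, at 58.8 ± 2.81 CPM per kilobase, differed beyond the spread neither from *Igf2r* above it nor from *Igf2*, at 54.4 ± 28.4, below it, and the order of these 3 genes was *Igf2*, *Igfbp4*, *Igf2r* in replicate 1 and the reverse in replicate 2. *Igfbp5* at 36.6 ± 14.6 CPM per kilobase came below *Igf2* in both libraries, by more than the spread, and lay well above *Igf1r* at 2.67 ± 1.39. Of the low genes, *Igf1r* against *Igfbp3*, *Igfbp3* against *Igfbp6* and *Igfbp6* against *Igf1* changed places between the libraries, and the last place belonged to *Igfbp2* in both. The order of the abundant genes depended on the length used. With the coding sequence as the length, the means were 588 CPM per kilobase for *Igfbp7*, 544 for *Igf2* and 341 for *Igfbp4*. Those of *Igfbp5* and *Igf2r* were 270.3 and 84.1. *Igf2* then stood at 1.04 times *Igfbp7* in replicate 1 and 0.748 times in replicate 2. As the level kept the reads of all exons, this scale raises genes with long exons outside the coding sequence. Without division by length *Igf2r* came first by the mean of the libraries and in replicate 2. In replicate 1 *Igfbp7* came first, with 674 CPM against 501 for *Igf2r*.

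**Figure D3:**
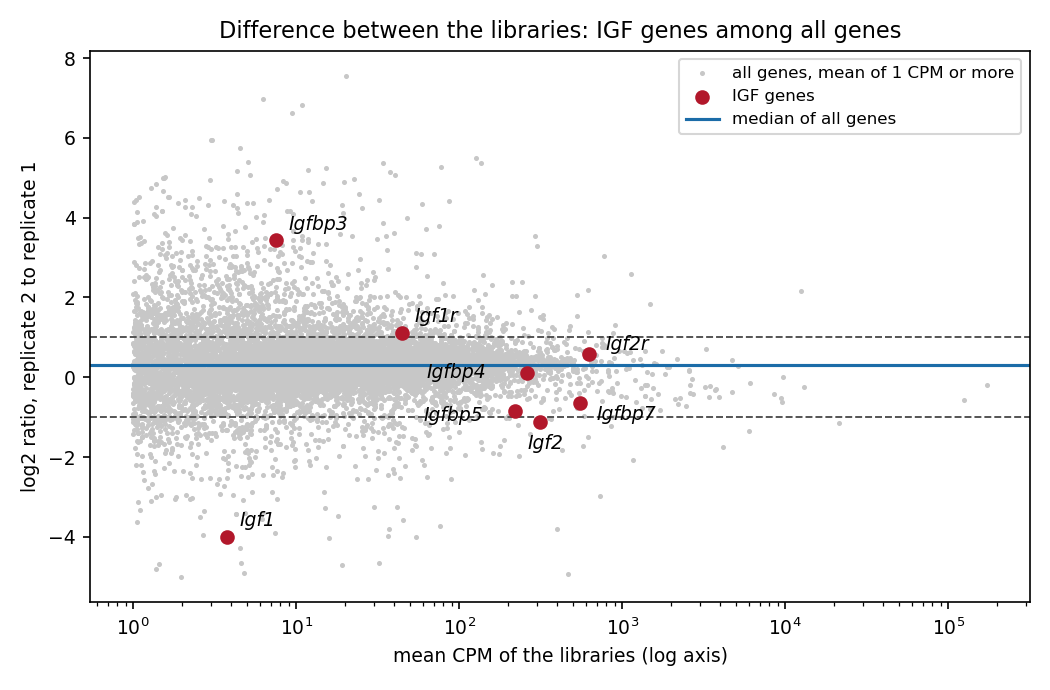
Log2 ratio of replicate 2 to replicate 1, on the log2(CPM + 0.1) scale, against the mean CPM (log axis) for 12631 genes (grey) and the 8 IGF genes that reached a mean of 1 CPM (red). *Igfbp3* lies at 3.43 and *Igf1* at -4.00, far outside the dashed lines of a 2-fold difference, while *Igfbp4* lies close to the blue line, the median of all genes at 0.30.

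The libraries are replicates of 1 condition, so their difference shows how far each level can be relied on. A mean of 1 CPM was reached by 8 of the 10 genes, and *Igf1* was among them through replicate 1 alone. Past 2-fold on the log2(CPM + 0.1) scale, which understates the change of low genes, 2 of the 8 were higher in replicate 2 (*Igf1r* and *Igfbp3*), where 11.4% of all 12631 genes were. Another 2 of the 8 were lower (*Igf1* and *Igf2*), against 3.71% of all genes. After centring on the median of all genes, only *Igfbp3* was higher (7.43% of all genes), and *Igf1*, *Igf2* and *Igfbp5* were lower (6.06% of all genes). *Igf1r* thus passed 2-fold on the deposited scaling but not after centring, and the reverse held for *Igfbp5*.

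*Igf1* and *Igfbp3* had the widest gaps. The log2 ratio of -4.00 for *Igf1* was lower than that of all but 0.0871% of the genes, and the ratio of 3.43 for *Igfbp3* was exceeded by 0.871% of them. *Igf2* had a log2 ratio of -1.12, *Igfbp5* of -0.84 and *Igfbp7* of -0.65, each in favour of replicate 1. *Igf2r* had 0.59 and *Igf1r* 1.11. The ratio of *Igfbp4* was 0.10 as deposited and -0.21 after centring, so it has no direction.

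*Sox9*, the gene that carries the reporter, had 252 and 279 CPM in replicates 1 and 2 and so lay much closer between the libraries than *Igf1* or *Igfbp3*. Some genes of cartilage and bone also differed widely between the libraries. Of the 8 chondrocyte markers, 6 lay within 2-fold after centring, and *Matn1* and *Col9a1* were lower in replicate 2, as 6.06% of all genes were. *Col9a1* passed 2-fold only after centring, with a log2 ratio of -0.79 as deposited and -1.09 centred. *Matn1*, which encodes the cartilage protein matrilin-1, had 902 and 29.2 CPM in replicates 1 and 2, and *Dmp1*, an osteocyte gene, had 0.116 and 40.4 CPM. The 6 osteoblast markers looked up added up to 5.18 and 53.5 CPM in replicates 1 and 2, and *Dmp1* was most of it in replicate 2, while *Ibsp* (2.24 CPM) and *Sp7* (1.96 CPM) led in replicate 1. The 7 fibroblast markers summed to 2663 and 1325 CPM, nearly all of it the collagen genes *Col1a1* and *Col3a1* and the proteoglycan gene *Dcn*. Of the other fibroblast markers, *Pdgfra* had 2.03 and 2.71 CPM and *Dpt* 0.162 and 0.142 CPM, *Thy1* was listed at 0 in replicate 2 and *Pi16* in both. The part of these markers in the levels of the IGF genes was not tested.

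Markers of the cell types that the sort was set to remove, and of muscle, were also looked up. The 5 leukocyte and macrophage markers measured added up to 3.26 and 3.50 CPM in replicates 1 and 2, mostly *Cd68* at 2.56 and 2.40 CPM, while *Ptprc*, which encodes CD45, reached at most 0.0474 CPM and *Adgre1* was listed at 0 in both. The 5 endothelial markers summed to 0.231 and 0.166 CPM, all of it *Pecam1*, with *Cdh5*, *Kdr*, *Tek* and *Emcn* listed at 0. The 4 erythroid markers summed to 0.093 and 0.12 CPM, and the 4 measured skeletal muscle markers to 0.284 and 0.864 CPM. Their part in the levels of the IGF genes was not tested.

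The proteases that cut binding proteins were represented by 9 measured genes, with their inhibitors. At 1 CPM or more in both libraries were 5 of the 9. *Ctsd*, which encodes the lysosomal protease cathepsin D, was the highest with 5330 and 4133 CPM in replicates 1 and 2. *Htra1*, which encodes a secreted serine protease that can cut IGFBP5, had 273 and 81.9 CPM in replicates 1 and 2, and so was lower in replicate 2 as *Igfbp5* was. *Adam12*, which encodes a metalloprotease that can cut IGFBP3 and IGFBP5, had 67.4 and 354 CPM.

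The inhibitors and the other proteases ranged widely. *Pappa*, the gene of the IGFBP4 protease, which was picked here after its value was seen, had 10.5 and 14.5 CPM in replicates 1 and 2. *Stc2*, which encodes stanniocalcin 2, an inhibitor of PAPP-A, had 200.1 and 107 CPM. *Plat*, the tissue plasminogen activator gene, had 0.0693 CPM (3 reads) in replicate 1 and 2.70 CPM in replicate 2. Of the 7 genes that reached a mean of 1 CPM, *Adam12* and *Plat* were past 2-fold higher in replicate 2 after centring (7.43% of all genes) and *Htra1* and *Stc2* lower (6.06% of all genes). *Plat* reached that mean through replicate 2 alone.

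The adaptors and the PI3K, AKT and mTOR genes downstream of the receptor were measured in both libraries. Of the 20 genes, all had at least 1 CPM and 19 at least 10 CPM in both libraries, and 17 lay within 2-fold between the libraries after centring. The other 3 were *Irs2*, higher in replicate 2 as 7.43% of all genes were, and *Irs1* and *Grb14*, lower as 6.06% of all genes were, so the share past 2-fold was near that of all genes. *Grb10*, an imprinted gene whose product restrains signalling from the IGF1 and insulin receptors, had 310 and 211 CPM in replicates 1 and 2, the highest of the group. *Akt1* had 127 and 193 CPM and *Akt2* 102.0 and 102.2 CPM. The insulin receptor substrates, which link the receptors to PI3K, went opposite ways, with 85.0 and 38.6 CPM for *Irs1* and 4.21 and 10.5 CPM for *Irs2*. *Grb14*, another adaptor that restrains the insulin receptor, had 45.9 and 23.6 CPM.

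**Figure D4:**
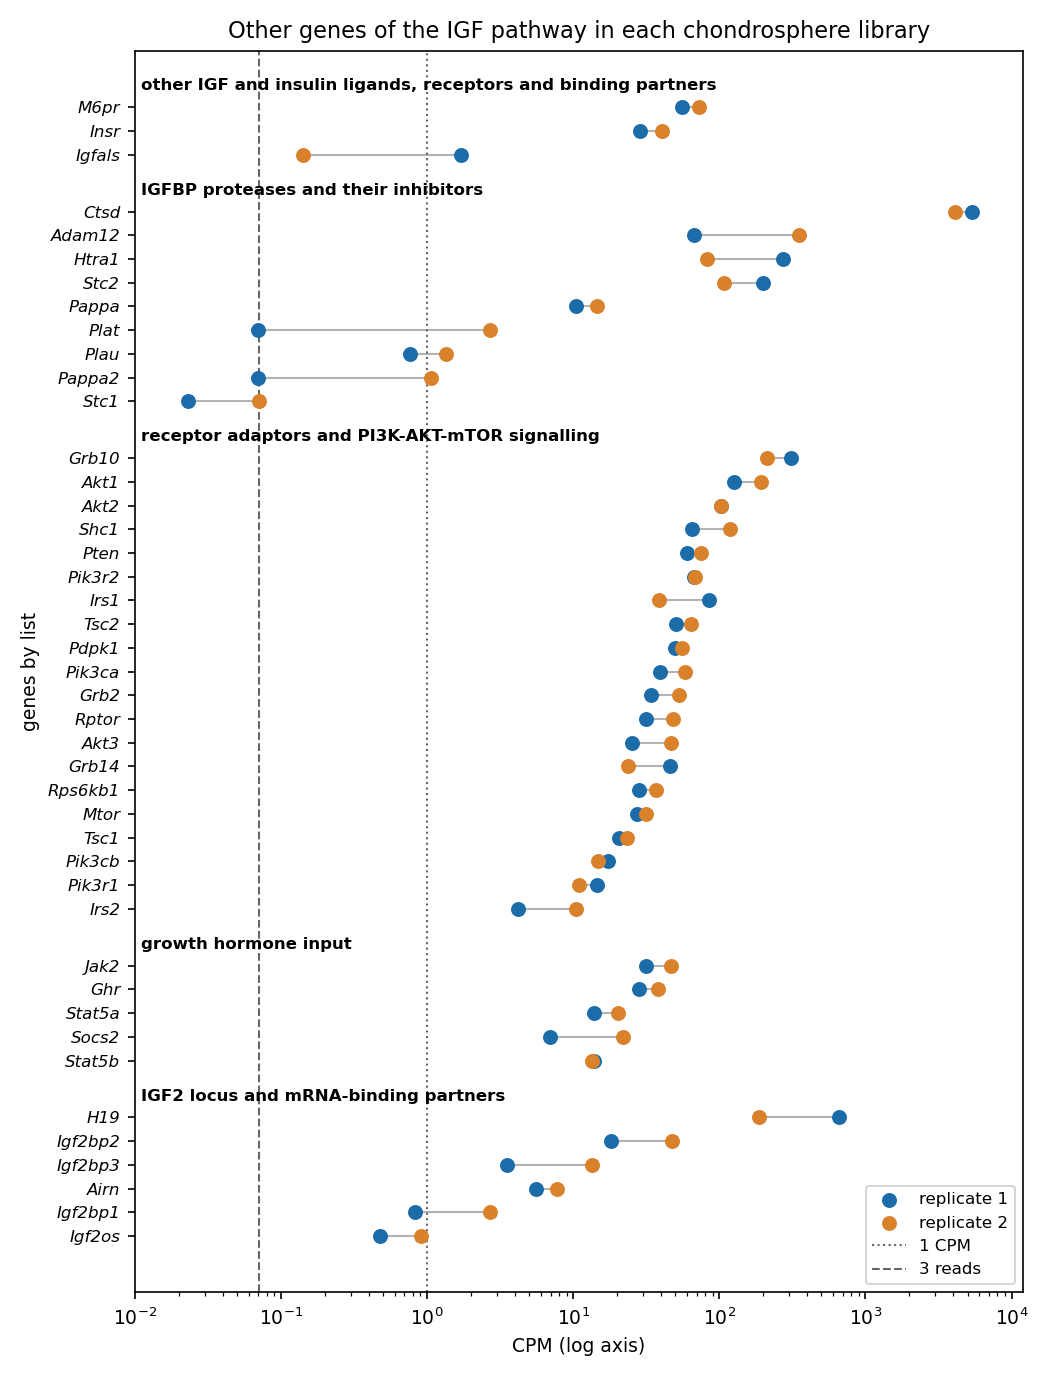
CPM (log axis) of the other measured genes of the IGF pathway in replicate 1 (blue) and replicate 2 (orange), by list and mean level. The 20 adaptor and PI3K, AKT and mTOR genes all lie above 1 CPM (dotted line), from *Irs2* at 4.21 to *Grb10* at 310 CPM in replicate 1. The list of proteases and their inhibitors runs from *Ctsd* at 5330 CPM to *Stc1* below the level of 3 reads (dashed line) in replicate 1.

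All 5 genes looked up for the growth hormone input, which induces *Igf1* in many tissues, had at least 1 CPM in both libraries. *Ghr*, the growth hormone receptor gene, had 28.1 and 38.3 CPM in replicates 1 and 2, and *Jak2*, the kinase gene bound to it, 31.7 and 46.5 CPM. *Stat5a*, which encodes the transcription factor downstream, had 13.8 and 20.3 CPM. *Socs2*, a feedback gene that growth hormone induces, had 6.98 and 22.1 CPM. It alone of the 5 passed 2-fold after centring, higher in replicate 2 as 7.43% of all genes were. A link to the level of *Igf1*, at 0.356 CPM in replicate 2, was not tested.

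The genes of the IGF2 mRNA-binding proteins, which attach to *Igf2* and other transcripts and are known as oncofetal genes, were all higher in replicate 2. *Igf2bp2* had 18.1 and 47.6 CPM in replicates 1 and 2, *Igf2bp3* had 3.53 and 13.5 CPM, and *Igf2bp1* had 0.832 and 2.68 CPM. Each was past 2-fold after centring, as 7.43% of all genes were in that direction, *Igf2bp1* reached a mean of 1 CPM through replicate 2 alone, and *Igf2* itself was lower in replicate 2.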

How the data were processed

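RNA-sequencing of 2 libraries of 1 condition (*Sox9* GFPHi chondrospheres, replicates 1 and 2) was used. The authors aligned single-end reads to GRCm38 (mm10) with STAR 2.7.3a and GENCODE M25, counted genes with the E/M method of Partek Flow 10.0.21.0801, and deposited counts-per-million (CPM) values with 0.0001 added, which was subtracted here. Of the values below 1 CPM, 64.5% in replicate 1 and 63.7% in replicate 2 lay within 0.05 of a whole number of reads. These were too few to rebuild counts of all genes, so no count test was used although the design had allowed for one. Read numbers given for single genes are CPM divided by the step of 1 read, 0.0231 and 0.0237 CPM, and rounded. Those of *Igf1*, *Igfbp3* and *Igfbp6*, whose intervals are given, lay within 0.05 of a whole number in both libraries.

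Levels of different genes were divided by annotated exon length (GENCODE M21, GRCm38, with 97.2% of 23628 names matched). Where the coding sequence was the length, the level still held all reads of the gene. Intervals of folds are exact Clopper-Pearson intervals of the split of reads, at 95%. For log2 ratios between libraries, 0.1 CPM was added as a pseudocount, and genes below a mean of 1 CPM were left out of counts. The computation was tested on simulated data.

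The members and gene lists were chosen with earlier results of these data known. All members were named. Of other lists, the 3 highest genes, those past 2-fold after centring, ligands and receptors were named, and of marker lists the defining genes. *Igfals*, *Pappa*, *Stc1* and genes that overlap members (*Airn*, *Igf2os*, *Igf1os*, *Polr2b* and *Gm49394*) were named outside these rules. *Ins1*, *Ins2*, *Insrr*, *Igfbp1*, *Igfbpl1*, *Adam28*, *Irs4*, *Cd3e* and *Pax7* had no value under these names in either library and so were not analysed. Alternatives covered scaling, pseudocount, filter, length, and leaving out each library. The software was Python 3.11.15 with scipy 1.17.1, pandas 2.3.3, numpy 2.4.6 and matplotlib 3.10.9.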

Additional observations from a re-analysis of the deposited data

How the results depend on the processing

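For 48 results, 206 values were recomputed with 1 choice changed, of which 158 kept their place. A level, share or ratio within a library kept its place if it changed by less than the SD. A ratio between the libraries kept it by staying in its direction and on the same side of 2-fold. Counts could change more and still be kept, as from 1435 to 1118 and from 468 to 646. For low genes the SD exceeded the mean, as for *Igf1* at 3.77 ± 4.83 CPM and *Igfbp3* at 7.55 ± 8.98 CPM, so levels kept there show no stability. The 158 include all 60 values that leave out 1 library, which lie within the SD by arithmetic and show no stability. Without 1 or the other library, *Igfbp7* made up 79.6% to 84.2% of the binding protein sum, *Igfbp4* 8.58% to 13.6% and *Igfbp5* 5.86% to 7.08%. With 2 libraries of 1 condition, every SD rests on 1 difference. No paired analysis was possible because there is 1 group.

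Length moved many values. As means of both libraries, the share of *Igfbp7* was 48.2% per coding sequence and 52.6% without division by length, that of *Igfbp4* was 29.0% and 25.8%, and that of *Igfbp5* was 21.9% and 20.7%. Without *Igfbp7* in the sum, *Igfbp4* had 60.3% and *Igfbp5* 36.7%, as a smaller sum requires. The log2 ratio of *Igfbp7* to *Igfbp4* was 0.75 per coding sequence and 1.05 without division, and that of *Igf2r* to *Igf1r* was 4.24 per longest coding transcript, 3.02 per coding sequence and 3.88 without division.

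The log2 ratio of *Igfbp4* between the libraries, 0.10, reversed to -0.21 by both the trimmed mean of log ratios and centring. Genes past 2-fold higher in replicate 2 numbered 1435, and 530 with a filter of 10 CPM, 2817 without a filter, 953 after the trimmed mean and 938 after centring. Those lower numbered 468, and 152, 1538, 749 and 766 in the same order. Scaled to a total that lacks the 10 highest genes, they were 1118 and 646, a count added after seeing the data. This scaling raised the mean level of *Igf2* to 524, *Igf2r* to 1015, *Igfbp7* to 921, *Igfbp4* to 425, *Igfbp5* to 368 and *Igf1r* to 71.7 CPM, as a smaller total requires, and leaves ratios within a library as they are. With a limit of 3 reads in place of 1 CPM, 8 and not 5 genes of proteases and their inhibitors counted as present in both libraries. With 10 CPM, 2 and not 4 genes of the *Igf2* locus list did.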
